A study of Mus musculus with 12 samples.

Results

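The genes described here encode the urea cycle and the steps that feed ammonia and aspartate into it in mouse liver. The set has 10 genes, Nags, Cps1, Otc, Ass1, Asl, Arg1, Slc25a15, Slc25a13, Gls2 and Glud1, named by their role in the pathway. A gene was read from the row of the expression table that the platform annotation gives to that gene alone, taking the brightest such row over the 12 arrays. By that rule 8 of the 10 were measured, among 19938 genes in all. The rows for Ass1, argininosuccinate synthase, carry a second gene symbol and were not used, and Gls2, the liver-type glutaminase, was not analysed here.

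The livers came from fed male C57BL/6J mice, with 6 mice given an adenovirus carrying ChREBP and 6 mice given an adenovirus carrying GFP, the control protein. The virus was injected into the tail vein, the labelled age was 8 weeks, and whole livers were studied 3 weeks after the injection on Affymetrix mouse gene arrays, 1 array per mouse. ChREBP, encoded by Mlxipl, is a glucose-responsive transcription factor that drives genes of glycolysis and fatty acid synthesis in hepatocytes, and the comparison asks which liver transcripts differ when it is in excess. Both groups received virus, and the dose and the origin of the ChREBP sequence (species, isoform) could not be taken from the labels.

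The urea cycle turns ammonia, which is toxic, into urea that the kidney can excrete, and its full set of enzymes is found mainly in hepatocytes around the portal vein. It starts in the mitochondrion, where carbamoyl phosphate is made and joined to ornithine, and is completed in the cytosol, where aspartate supplies the second nitrogen and arginine is split into urea and ornithine. Ammonia that escapes the cycle is caught by glutamine synthetase in a narrow rim of hepatocytes around the central vein.

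Promoter sequences were taken from RefSeq on the GRCm38.p6 build, where 6 of the 10 genes (Ass1, Slc25a13, Slc25a15, Nags, Glud1 and Otc) had an entry and Slc25a15 had a pair of alternative starts. ChREBP and its partner Mlx bind pairs of E-boxes. Pairs were not searched for, but the 250 bases before each start were searched on both strands for a single perfect E-box, CACGTG. It was present in 6.02% of 32851 promoter windows of the same length, which were not matched for GC content. The 6 genes have 7 windows, and 3 of these held it, with only 1 start of Slc25a15 among them. These 3 matches are shown with 12 bases on either side and the E-box in capitals, each read 5′ to 3′ on the strand of the gene.
Ass1, chr2:31470222-31470251, plus strand: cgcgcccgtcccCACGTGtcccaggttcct
Slc25a13, chr6:6217281-6217310, minus strand: cacagtctgagtCACGTGtcctggcccctc
Slc25a15, chr8:22398337-22398366, minus strand: cgccctgccgcaCACGTGccgcggctccgg
The E-box begins 36 bases before the start in Ass1, 125 bases before it in Slc25a13 and 77 bases before it in Slc25a15. In Slc25a13 and Slc25a15 these starts are not the outermost ones annotated, so the stretches lie wholly or partly inside longer transcripts.

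The windows of the other genes are shown by 2 examples, with no E-box in either. Nags held 1 copy of the nuclear receptor motif AGGTCA, which was present in 14.02% of all windows. It lies on the opposite strand and is printed as TGACCT in capitals. Otc held none of the letters searched, and its stretch ends where the annotated gene begins.
Nags, chr11:102145263-102145512, plus strand: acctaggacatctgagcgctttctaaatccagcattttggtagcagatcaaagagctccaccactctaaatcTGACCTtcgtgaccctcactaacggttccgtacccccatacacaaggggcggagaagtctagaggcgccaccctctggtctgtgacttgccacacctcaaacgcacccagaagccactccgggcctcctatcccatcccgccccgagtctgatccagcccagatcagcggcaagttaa
Otc, chrX:10252055-10252229, plus strand: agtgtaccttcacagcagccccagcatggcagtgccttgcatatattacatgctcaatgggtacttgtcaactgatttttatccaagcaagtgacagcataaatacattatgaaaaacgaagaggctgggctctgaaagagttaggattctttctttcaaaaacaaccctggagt
The remaining searches were CCAAT, in 33.8% of all windows and in that of Slc25a13, TATAAA in 12.4%, TTGCNNAA (C/EBP) in 9.56%, a glucocorticoid receptor element in 2.61%, TGACGTCA (cyclic AMP element) in 1.55% and CAAAGTCC (HNF4) in 1.2%, and the last 5 were in 0 windows of the 6 genes. No match overlapped another, and a match in these letters is a description of the sequence only.

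All values are RMA values on the log2 scale, on which a difference of 1 is a doubling of signal, and ran from 2.43 to 13.7 with array medians of 5.96 to 6.05. Arrays correlated at 0.979 to 0.995 within a group and at 0.971 to 0.986 between groups. Mlxipl averaged 10.89 ± 0.08 in ChREBP livers and 9.32 ± 0.23 in GFP livers (SD, n = 6 each), a 2.98-fold difference, and the array does not tell the vector's transcript from that of the mouse gene. The 8 measured hepatocyte markers were abundant on every array, and their summed level (log2 of the summed unlogged values) was 15.54 to 15.65 in ChREBP livers and 15.73 to 15.83 in GFP livers. Transcripts of pancreatic acinar cells stood out on ChREBP 4 and ChREBP 5, with a summed level of 15.4 and 15.23, against 9.15 to 10.81 on the other ChREBP arrays and 9.29 to 9.44 on the GFP arrays. Adipoq, made by adipocytes, was above 8 on ChREBP 6 (9.02), GFP 4 (8.52) and GFP 6 (8.32).

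Every measured gene of the urea cycle set was lower in ChREBP livers. With limma and Benjamini-Hochberg adjustment over all 19938 genes, 8 of 8 fell at an adjusted p under 0.05, where 13.7% of all genes were lower, 13.3% were higher and 27.0% passed in either direction. The ChREBP and GFP arrays did not overlap for 7 of the 8, where 6.83% of all genes lay lower and 8.33% higher without overlap. The median difference of the 8 was -0.51, between -0.75 for Slc25a13 and -0.31 for Nags, beside -0.04 for all genes. Falls were commoner among abundant transcripts: of the 2692 genes with a mean value of at least 9, to which 7 of the 8 belong (all but Nags), 30.9% were lower and 22.5% were lower without overlap. In whole liver, fewer cells of a type and less RNA per cell cannot be told apart.

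**Figure D1:**
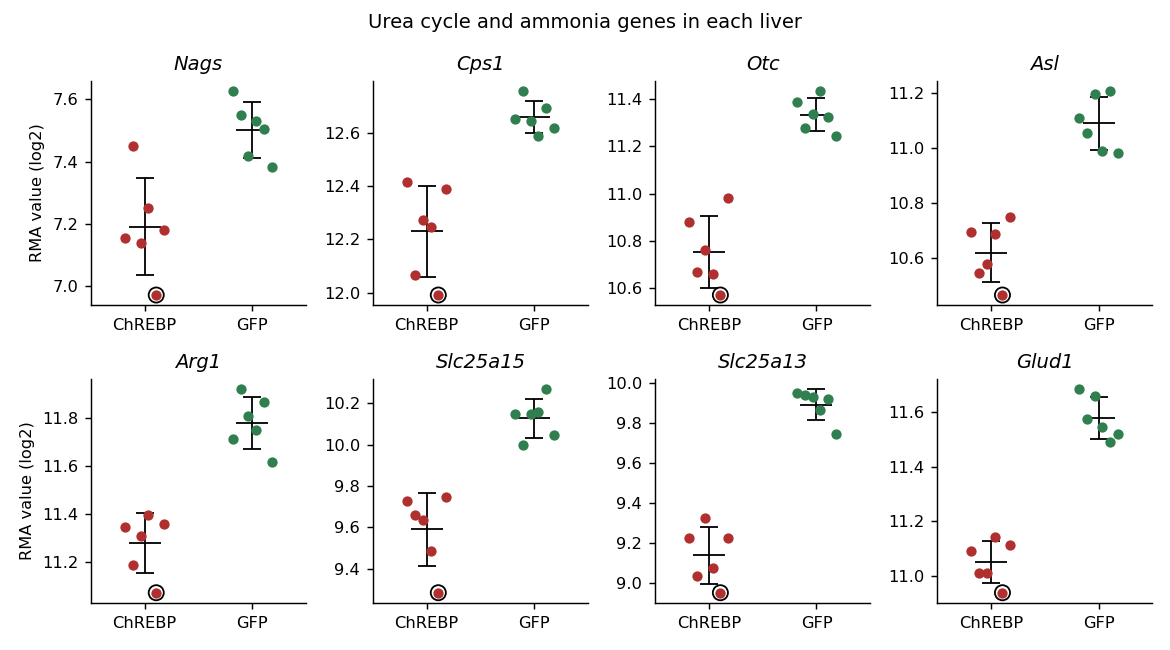
RMA values (log2) of 8 urea cycle and ammonia genes in 6 ChREBP livers (red) and 6 GFP livers (green), 1 point per array, with the mean and SD in black; the vertical axes do not start at 0 and differ between genes. ChREBP 5, ringed, is the lowest array for all 8 genes, and only Nags has ChREBP and GFP points at the same height.

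The cycle begins with Nags and Cps1. Nags encodes the synthase of N-acetylglutamate, the obligatory activator of carbamoyl phosphate synthetase. Its lowest, median and highest values were 6.97, 7.17 and 7.45 on the ChREBP arrays, against 7.38, 7.52 and 7.63 on the GFP arrays. This was the only gene of the 8 whose groups overlapped, because ChREBP 2 (7.45) lay above GFP 3 (7.42) and GFP 6 (7.38). Nags fell by 0.31 (SE 0.07, 95% interval -0.46 to -0.16), to 0.806 times the GFP level, with an adjusted p of 0.00483 in limma.

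Cps1 encodes carbamoyl phosphate synthetase, the mitochondrial entry enzyme of the cycle. It read 11.99, 12.26 and 12.42 (lowest, median and highest) in ChREBP livers, against 12.59, 12.65 and 12.76 in GFP livers. All ChREBP arrays lay below all GFP arrays, and the spread was wider with ChREBP (SD 0.17) than with GFP (SD 0.06). The difference was -0.43 (SE 0.07, 95% interval -0.58 to -0.28, adjusted p = 0.000454 in limma), or 0.743 times the GFP level. ChREBP 5 (11.99) and ChREBP 2 (12.07) were the lowest arrays for this gene.

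Otc, the X-linked ornithine transcarbamylase, joins carbamoyl phosphate to ornithine to give citrulline. Its values were 10.57, 10.71 and 10.98 (lowest, median and highest) on ChREBP arrays, against 11.24, 11.33 and 11.43 on GFP arrays. Every ChREBP array lay below every GFP array, with ChREBP 6 (10.98) the nearest. Otc fell by 0.58 (SE 0.07, 95% interval -0.73 to -0.44, adjusted p = 1.94e-05 in limma), to 0.668 times the GFP level.

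In the cytosol, Asl encodes argininosuccinate lyase, which releases arginine and fumarate. It read 10.47, 10.63 and 10.75 (lowest, median and highest) in ChREBP livers, against 10.98, 11.08 and 11.21 in GFP livers. Its groups had a like spread (SD 0.11 with ChREBP and 0.10 with GFP) and did not overlap. Asl fell by 0.47 (SE 0.06, 95% interval -0.60 to -0.34, adjusted p = 4.94e-05 in limma), to 0.722 times the GFP level.

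Arg1, the liver arginase that splits arginine into urea and ornithine, closes the cycle. It read 11.07, 11.33 and 11.39 (lowest, median and highest) on ChREBP arrays, against 11.62, 11.78 and 11.92 on GFP arrays. No ChREBP array reached the lowest GFP array. Arg1 fell by 0.50 (SE 0.07, 95% interval -0.64 to -0.36, adjusted p = 6.49e-05 in limma), to 0.707 times the GFP level. The 95% intervals of Otc, Asl and Arg1 overlapped one another.

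The mitochondrial carriers of the cycle fell as well. Slc25a15, which exchanges cytosolic ornithine for citrulline across the inner membrane, read 9.28, 9.65 and 9.75 (lowest, median and highest) in ChREBP livers, against a median of 10.15 and a highest value of 10.27 in GFP livers. It fell by 0.54 (SE 0.08, 95% interval -0.70 to -0.37, adjusted p = 0.000129 in limma), to 0.689 times the GFP level. The groups did not overlap, since the lowest GFP array, GFP 2, lay above the highest ChREBP array, and ChREBP 5 (9.28) was at the bottom. Slc25a15 is 1 of the 3 genes with an E-box in the window shown above.

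Slc25a13 encodes citrin, the carrier that brings mitochondrial aspartate to the cytosol for argininosuccinate synthesis in exchange for glutamate. It read 8.95, 9.15 and 9.33 (lowest, median and highest) on ChREBP arrays, against 9.74, 9.92 and 9.95 on GFP arrays. The highest ChREBP array and the lowest GFP array were ChREBP 3 and GFP 6, still without overlap. The fall of 0.75 (SE 0.07, 95% interval -0.89 to -0.61, adjusted p = 1.34e-06 in limma), to 0.594 times the GFP level, was the largest of the 8. Slc25a13 was also the only gene of the 8 past a 1.5-fold change with an unadjusted p under 0.05, where 1.6% of all genes were lower.

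Glud1, glutamate dehydrogenase, releases ammonia from glutamate in the mitochondrion. It read 10.94, 11.05 and 11.14 (lowest, median and highest) in ChREBP livers, against 11.49, 11.56 and 11.68 in GFP livers. Its spread was narrow in both groups (SD 0.08 each), and the groups did not overlap. Glud1 fell by 0.53 (SE 0.05, 95% interval -0.63 to -0.42, adjusted p = 3.22e-06 in limma), to 0.695 times the GFP level. The exact two-sided permutation test over every assignment of 6 of the 12 arrays to ChREBP gave p = 0.00216, the smallest it can give, for each gene of the 8 other than Nags, for which it gave p = 0.00649. These permutation p-values are unadjusted, unlike those from limma, and the genes were read from the same 12 livers.

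Among the ChREBP arrays the 8 genes shared their lowest array but not their highest. ChREBP 5 was the lowest ChREBP array for 8 of 8 genes, on average 0.20 below its group's mean, while the highest values were spread over the other 5 ChREBP arrays, with 3 of them on ChREBP 6, which averaged 0.11 above the mean. Among GFP arrays, GFP 6 was the lowest for 5 of 8 genes and averaged 0.10 below its group's mean. The mean of the 8 genes was 10.03 to 10.34 on ChREBP arrays and 10.64 to 10.78 on GFP arrays with no overlap. ChREBP 4, the other array with high acinar transcripts, averaged 0.01 above its group's mean. Without ChREBP 4 and ChREBP 5, all 8 genes were still lower, with differences of -0.69 for Slc25a13 to -0.27 for Nags. That fit kept ChREBP 2, which had the next highest summed level of acinar markers (10.81). Without ChREBP 6, GFP 4 and GFP 6, all 8 were lower too, at -0.81 to -0.33.

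**Figure D2:**
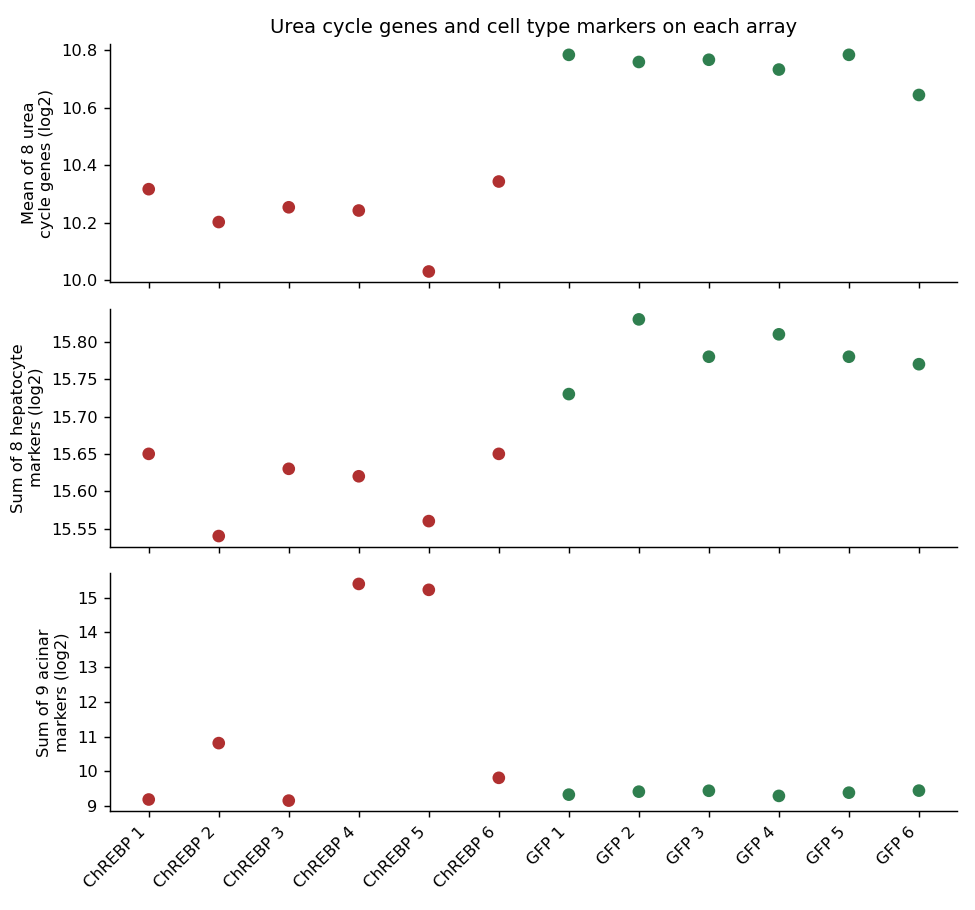
For each of the 6 ChREBP arrays (red) and 6 GFP arrays (green), the mean RMA value of the 8 urea cycle genes (top), the summed level of 8 hepatocyte markers (middle) and the summed level of 9 acinar markers (bottom), all log2, on axes that do not start at 0. The top and middle panels separate the groups, while the bottom panel is highest on ChREBP 4 and ChREBP 5, with ChREBP 2 next (10.81).

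Hepatocyte markers moved in the same direction by less. Of the 10 listed, 8 were measured, and 7 fell and 1 did not pass, with a median difference of -0.20, between -0.33 for Hnf4a and -0.07 for Alb. All but Hnf4a had a mean over all arrays of 12.41 (Apob) to 13.09 (Ttr), near the highest value of any gene (13.7). Hnf4a, which fell most, averaged 9.84 in ChREBP livers and 10.17 in GFP livers. Whether a fall is read in full at so high a signal was not tested, and the scaling below rests on these markers. Of all genes 13.7% were lower, and of those with a mean value of at least 9 30.9% were. When each array was shifted so that the mean of these markers was equal, a setting chosen after the data were seen, the median of all genes moved to 0.15, and 3.75% of all genes were lower and 43.8% higher. On that scale 7 of the 8 urea cycle genes were still lower at an adjusted p under 0.05 in limma, with differences of -0.23 for Cps1, -0.39 for Otc, -0.27 for Asl, -0.30 for Arg1, -0.34 for Slc25a15, -0.56 for Slc25a13 and -0.33 for Glud1. Nags was at -0.11 with an adjusted p of 0.222 in limma. The part that the hepatocyte share plays in the falls beyond this scaling was not tested.

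The genes that handle glutamine and free ammonia were mixed. Of 13 listed, 12 were measured, and 7 fell, 1 rose and 4 did not pass, with a median difference of -0.32. The counts of this and the following lists stand beside 13.7% of all genes lower and 13.3% higher. Among genes with a mean value of at least 9, 30.9% were lower. Glul, glutamine synthetase, did not pass, and its values overlapped widely, at 11.92 to 12.21 in ChREBP livers and 12.08 to 12.22 in GFP livers (difference -0.10, SE 0.06, 95% interval -0.22 to 0.03, adjusted p = 0.224 in limma). Rhbg, an ammonia transporter of the central vein rim, was at 0.09 (adjusted p = 0.321). With hepatocyte markers set equal it was at 0.29 and passed as higher (adjusted p = 0.00197), as did 43.8% of all genes.

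Among the transporters of this list, Slc38a3, a glutamine transporter, fell by 0.48 (SE 0.08, adjusted p = 0.000364 in limma) without overlap. Slc1a2, a glutamate transporter found around the central vein, averaged 8.93 ± 0.25 in ChREBP livers and 9.65 ± 0.16 in GFP livers (SD, n = 6 each), and fell by 0.71 (adjusted p = 0.00021). Slc38a2, a neutral amino acid transporter, fell by 0.73 (adjusted p = 0.00204), with GFP 2 (10.22) level with the ChREBP arrays while the other GFP arrays read 10.92 to 11.14. Nit2, which hydrolyses a keto acid left by glutamine transamination, fell by 0.70 (adjusted p = 7.06e-07). Ppat, the first enzyme of purine synthesis (-0.40), Gmps, the glutamine-using synthase of GMP (-0.24), and Slc38a4, a neutral amino acid transporter of hepatocytes (-0.19), fell too. Gmps (-0.04) and Slc38a4 (0.01) no longer passed with hepatocyte markers set equal. Slc1a5, another glutamine transporter, was the 1 gene of this list that rose, by 0.46 (adjusted p = 0.0477). That call was lost with any 1 of ChREBP 1, 5 or 6 or GFP 1 to 5 left out, with differences of 0.33 to 0.49 in those fits and adjusted p of 0.0572 to 0.0941. Asns, asparagine synthetase, spread too widely to pass (-0.78, adjusted p = 0.104), and passed without ChREBP 4 at -0.97 (adjusted p = 0.0435). Slc7a5 was at -0.07 and did not pass.

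The transaminases moved in both directions. Besides Glud1, the list of transaminases and glutamate carriers has 11 genes, all measured, of which 4 fell, 2 rose and 5 did not pass, with a median difference of -0.11. Of all genes 13.7% were lower and 13.3% higher. Tat, tyrosine aminotransferase, fell by 0.63 (SE 0.10, adjusted p = 0.000251 in limma). Gpt, the cytosolic alanine aminotransferase (-0.39, adjusted p = 0.00034), and Abat, which degrades GABA (-0.33, adjusted p = 0.00194), also fell. Gad1, a GABA-forming decarboxylase at a low signal of 4.93 in ChREBP livers and 5.10 in GFP livers, fell by 0.17 (adjusted p = 0.0403), a call that was lost with any 1 of 9 arrays left out (ChREBP 1, 2, 3, 5 and 6, GFP 2 to 5), at -0.17 to -0.13 with adjusted p of 0.0531 to 0.0835.

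In contrast, Gpt2, the mitochondrial alanine aminotransferase, rose by 0.24 (adjusted p = 0.0195 in limma), and so did Slc25a11, which carries oxoglutarate against malate, by 0.57 (SE 0.07, adjusted p = 5.40e-05), with 9.62 to 9.77 in ChREBP livers and 8.80 to 9.36 in GFP livers. The Gpt2 call was lost without ChREBP 6, GFP 4 and GFP 6 together (0.21). The aspartate aminotransferases did not pass, at -0.19 for cytosolic Got1 (adjusted p = 0.074) and -0.11 for mitochondrial Got2 (adjusted p = 0.124), and Got1 passed without ChREBP 6 (-0.24, adjusted p = 0.0329), without ChREBP 6, GFP 4 and GFP 6 together (-0.30, adjusted p = 0.0147) and when array medians were set equal (-0.21, adjusted p = 0.0474), while it was at 0.002 with hepatocyte markers set equal. Slc25a12, the aspartate-glutamate carrier of brain and muscle, was at 0.07 (SE 0.08, adjusted p = 0.558). With hepatocyte markers set equal it was at 0.27 and passed as higher (adjusted p = 0.0165), as did 43.8% of all genes. On that scale the falls of Abat (-0.13) and Gad1 (0.03) did not pass.

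Arginine and ornithine leave the cycle by several routes. Of 18 genes listed for their use, 16 were measured, and 7 fell, 2 rose and 7 did not pass, with a median difference of -0.14. Of all genes 13.7% were lower and 13.3% higher. Prodh, proline dehydrogenase, fell by 0.85 (SE 0.09, adjusted p = 1.16e-05 in limma). So did Agmat, agmatinase (-0.61, adjusted p = 4.43e-05), and Aldh4a1, which turns the oxidised product of Prodh into glutamate (-0.33, adjusted p = 0.00131). Slc7a2, the cationic amino acid transporter of hepatocytes, fell by 0.41 (adjusted p = 0.0126). Oat, ornithine aminotransferase, a gene of the central vein rim, fell by 0.26 (adjusted p = 0.0458). The call for Oat was lost with any 1 of 9 arrays left out (ChREBP 1 to 5 and GFP 2 to 5), at -0.28 to -0.21 with adjusted p of 0.0573 to 0.0966. The genes that rose were Sat1, the acetyltransferase of polyamines, by 0.48 (adjusted p = 4.72e-05), and Gatm, the first enzyme of creatine synthesis, by 0.38 (adjusted p = 0.00403). The falls of Slc7a2 (-0.22), Aldh4a1 (-0.14) and Oat (-0.07) no longer passed with hepatocyte markers set equal.

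**Figure D3:**
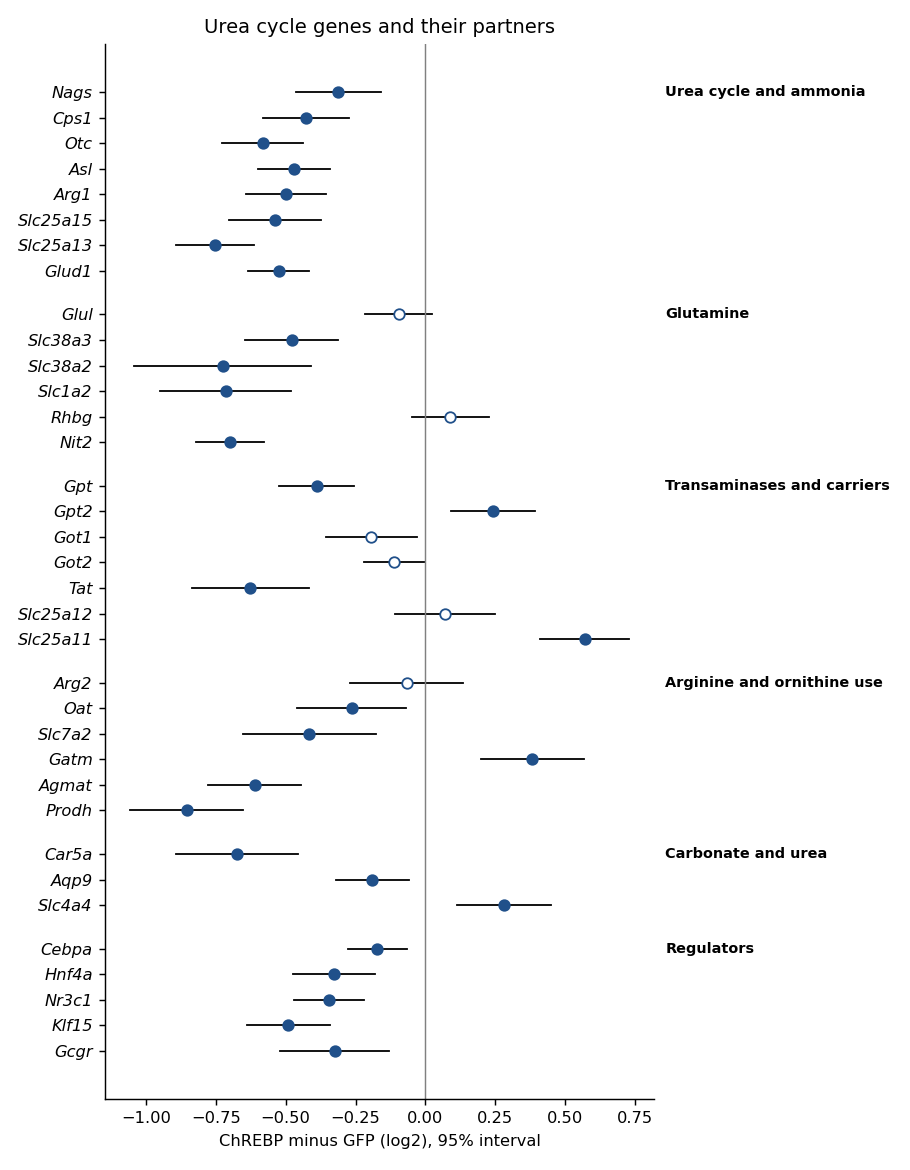
Difference ChREBP minus GFP (log2, points) with its 95% interval (lines) for the 8 urea cycle genes and for partner genes grouped by role, filled where the adjusted p in limma was under 0.05 and open where it was not. The 8 urea cycle genes lie between -0.75 and -0.31, while partner genes lie on both sides of 0, from -0.85 for Prodh to 0.57 for Slc25a11.

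As a description, 4 urea cycle genes were set against a partner gene on the same array. The partners were picked with their small differences known (0.07 for Slc25a12, -0.10 for Glul, -0.07 for Arg2 and -0.15 for Slc25a2), so no test was made. Relative to Slc25a12, its close relative, Slc25a13 differed by -0.82 between ChREBP and GFP livers (log2, SE 0.11), and relative to Glul, an unrelated enzyme, Glud1 differed by -0.43 (SE 0.06). In both of these pairs the groups did not overlap. Arg1 relative to Arg2, the mitochondrial arginase, differed by -0.43 (SE 0.13), and Slc25a15 relative to the ornithine carrier Slc25a2 by -0.38 (SE 0.11). In these pairs the groups overlapped, and the partners had a low signal, with means of 5.13 for Arg2 and 5.12 for Slc25a2 in ChREBP livers and 5.20 and 5.28 in GFP livers, below the median of all values (6.02). The values do not show that the partner stayed the same.

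**Figure D4:**
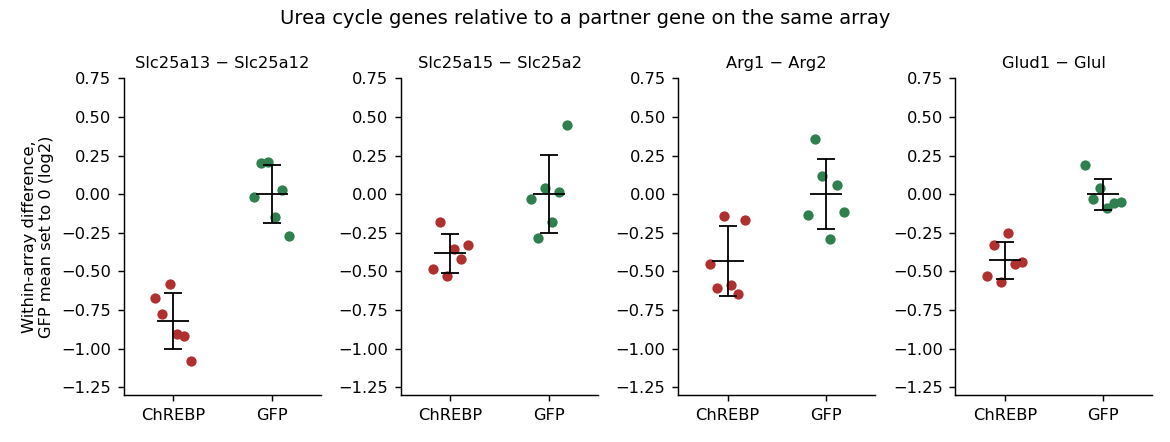
Difference of each of 4 urea cycle genes and a partner gene on the same array (log2), with the GFP mean set to 0, for 6 ChREBP arrays (red) and 6 GFP arrays (green), with the mean and SD in black. The ChREBP points lie wholly below the GFP points for Slc25a13 against Slc25a12 and for Glud1 against Glul, and overlap them in the other pairs.

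Bicarbonate and urea transport gave no common direction. All 9 genes listed were measured, and 3 fell, 2 rose and 4 did not pass, with a median difference of 0.03. Of all genes 13.7% were lower and 13.3% higher. Car5a, the mitochondrial carbonic anhydrase that supplies bicarbonate to Cps1, averaged 8.81 ± 0.20 in ChREBP livers and 9.49 ± 0.19 in GFP livers (SD, n = 6 each) and fell by 0.67 (SE 0.10, adjusted p = 0.000188 in limma) without overlap, as did the muscle and liver isoform Car3 (-0.52). Aqp9, a hepatocyte channel for glycerol and urea, fell by 0.19 (adjusted p = 0.0327), and that call was lost with any 1 of ChREBP 2, ChREBP 5, GFP 2, GFP 3 or GFP 5 left out, at -0.18 to -0.15 with adjusted p of 0.0611 to 0.0691. Car2, a cytosolic carbonic anhydrase, rose by 0.33 (adjusted p = 0.0025), and Slc4a4, a sodium bicarbonate cotransporter, by 0.28 (adjusted p = 0.0158), a call lost without ChREBP 6, GFP 4 and GFP 6 together (0.23). The urea transporter gene Slc14a1 was at 0.12, Car14 at 0.03, Aqp3 at -0.02 and Aqp8 at 0.17, none of which passed. Aqp8 passed without ChREBP 3 (0.19, adjusted p = 0.0434) and without GFP 1 (0.21, adjusted p = 0.0137). With hepatocyte markers set equal, the median of all genes was 0.15 and 43.8% of all genes passed as higher. On that scale Slc14a1 (0.32), Car14 (0.23), Aqp3 (0.18) and Aqp8 (0.36) passed as higher, and Aqp9 was at 0.01 and did not pass.

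A list of possible regulators of the urea cycle, not all of them transcription factors, was also counted. Of 15 listed, 13 were measured, and 7 fell, 1 rose and 5 did not pass, with a median difference of -0.18. Of all genes 13.7% were lower and 13.3% higher. Klf15, a glucocorticoid-induced factor for amino acid breakdown, fell by 0.49 (SE 0.07, adjusted p = 0.000111 in limma). Nr3c1, the glucocorticoid receptor (-0.35, adjusted p = 0.000528), Creb3l3, a fasting-responsive factor (-0.35, adjusted p = 0.000945), Gcgr, the glucagon receptor (-0.32), and the hepatocyte factors Foxa2 (-0.34), Hnf4a (-0.33) and Cebpa (-0.17) also fell. With hepatocyte markers set equal, the falls of Nr3c1 (-0.15), Foxa2 (-0.14), Hnf4a (-0.13) and Gcgr (-0.13) no longer passed, and Cebpa was at 0.02. Hnf4a is itself among the markers that set this scale, so its value there is partly fixed by the scaling. Lonp1, a mitochondrial protease, rose by 0.24 (adjusted p = 0.00433). Cebpb, Ppargc1a, Sirt3, Sirt5 and Nr1h4 did not pass, with differences of -0.18 to 0.05. Of these, Sirt5 passed as higher with hepatocyte markers set equal (0.24), as did 43.8% of all genes.

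The wider breakdown of amino acids, which delivers the nitrogen, was lower over most of its genes. Of 26 listed, none of them a urea cycle gene, 23 were measured, and 19 fell, 0 rose and 4 did not pass, with 17 lower without overlap and a median difference of -0.35. Over all genes, 13.7% were lower and 6.83% were lower without overlap. Among genes with a mean value of at least 9 these shares were 30.9% and 22.5%. Hal, histidine ammonia lyase, which frees ammonia directly, averaged 10.36 ± 0.21 in ChREBP livers and 11.30 ± 0.11 in GFP livers (SD, n = 6 each) and fell by 0.94 (adjusted p = 3.04e-06 in limma). Haao, of tryptophan breakdown (-0.62), Aass, of lysine breakdown (-0.62), Hpd, of tyrosine breakdown (-0.54), and Amt, a subunit of the glycine cleavage system (-0.42), fell as well. The branched-chain genes Bckdha (-0.01), Bckdhb (0.11) and Bcat2 (-0.11) did not pass, nor did Uroc1 of histidine breakdown (-0.23, adjusted p = 0.052), which passed without ChREBP 1 (-0.28, adjusted p = 0.0223) and without GFP 4 (-0.26, adjusted p = 0.0406). Bckdha (0.18) and Bckdhb (0.30) passed as higher with hepatocyte markers set equal, as did 43.8% of all genes.

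Genes that mark the zones of the liver were counted in the same way, beside 13.7% of all genes lower and 13.3% higher. Among genes with a mean value of at least 9, 30.9% were lower. Of 11 portal vein genes other than those of the cycle, 9 were measured, and 6 fell, 0 rose and 3 did not pass, with a median difference of -0.49. They included Pck1, of gluconeogenesis, at -0.76, Pigr at -0.68, Igf1 at -0.50 and Cyp2f2 at -0.31 (-0.11 and not passed with hepatocyte markers set equal), while Alb (-0.07), Hsd17b13 (0.07) and Aldh1b1 (0.05) did not pass. Of 15 central vein genes, 14 were measured, and 8 fell, 1 rose and 5 did not pass, with a median difference of -0.20. Cyp1a2 (-1.05), Gulo (-0.59) and Rgn (-0.54) fell, and Tbx3 rose by 0.42 (adjusted p = 0.000259 in limma). Cyp2e1 fell by 0.14, a call lost with any 1 of ChREBP 2, GFP 2, GFP 4 or GFP 5 left out (-0.14 to -0.12, adjusted p 0.054 to 0.0623). Besides Glul and Rhbg, Axin2 (0.10), Aldh1a1 (-0.07) and Nkd1 (-0.06) did not pass, and Nkd1 passed without ChREBP 5 (-0.25, adjusted p = 0.00755). With hepatocyte markers set equal, Hsd17b13 (0.27), Alb (0.12), Axin2 (0.29) and Aldh1a1 (0.12) passed as higher, as did 43.8% of all genes. Cyp2e1 was at 0.05 on that scale and did not pass. Alb and Cyp2e1 are among the markers that set the scale, so their values there are partly fixed by the scaling. The difference between the zones was not tested.

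Markers of other cells moved beside the urea cycle genes. Their counts stand beside 13.3% of all genes higher and 13.7% lower. All 7 measured markers of proliferating cells rose, from Pcna at 0.37 to Top2a at 1.99, and their summed level was 11.71 to 11.99 in ChREBP livers and 10.92 to 11.03 in GFP livers. Of 9 T and NK cell markers 7 rose and 0 fell, with Gzma at 1.85 and Klrb1c at -0.13, which passed only without ChREBP 5 (-0.18, adjusted p = 0.0453 in limma), and summed levels of 9.43 to 10.29 in ChREBP livers and 8.60 to 9.10 in GFP livers. Of 12 macrophage markers 6 rose and 4 fell, with Gpnmb at 2.17, Timd4 at -1.59, and summed levels of 12.44 to 12.89 in ChREBP livers and 12.18 to 12.44 in GFP livers. Among 9 acinar markers 1 rose, Cpb1 at 3.69, lost with any 1 of ChREBP 2, 4 or 5 or any GFP array left out (2.86 to 3.72, adjusted p 0.0585 to 0.0711, and 1.65 without ChREBP 4 and ChREBP 5 together), and the lowest difference was 1.46 for Cela1.
Fewer of the remaining markers passed. Of 8 endothelial markers 1 rose, with differences from -0.20 for Kdr to 0.57 for Lyve1. Of 9 stellate cell markers 2 rose and 1 fell, from -0.36 for Reln to 0.46 for Acta2, which did not pass. Of 5 cholangiocyte markers 2 rose, from 0.06 for Sox9 to 0.52 for Epcam. Of 7 adipocyte markers 2 rose, Fabp4 at 1.37 and Pnpla3 at 0.88, and 2 fell, Car3 at -0.52 and Plin1 at -0.22. Adipoq (-0.04), Lep (-0.12) and Retn (-0.09) did not pass. Car3, counted above as a muscle and liver isoform, is not particular to adipocytes. Lyve1 did not pass without ChREBP 6, GFP 4 and GFP 6 (0.60), nor Epcam without ChREBP 4 and ChREBP 5 (0.38). The part of any of these in the falls of the urea cycle genes was not tested.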

How the data were processed

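Liver RNA of 12 mice (6 ChREBP, 6 GFP) had been labelled with biotin after Nugen amplification and read on Affymetrix mouse gene arrays. The authors deposited log2 values, for which their processing notes list RMA and Partek (versions not given in the sources used here). RMA subtracts background, forces all arrays to a common distribution and combines the probes of each transcript, so values are relative to this set of arrays. No gene was called absent because detection calls were not used, and no array batch was tested because scan dates are not given either. The study's array methods describe another experiment and served only as a guide to the test.

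The table holds 35556 rows. Of these, 21789 carry 1 symbol, 1621 several and 12146 are not listed in the platform annotation. Symbols were updated through the Entrez ID (21698 rows matched in the RefSeq table of GRCm38.p6), giving 19938 genes, each represented by its brightest row. Differences, always ChREBP minus GFP, were tested two-sided and without covariates by the eBayes step of limma 3.58.1 (R 4.3.3), with Benjamini-Hochberg adjustment over all genes, and single genes with an exact permutation test. Sums of markers are log2 of summed unlogged values. The labels call the samples biological replicates. Precision is limited by having 6 arrays a group. The scripts were tested on simulated data.

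Named are the 10 urea cycle genes, Mlxipl, up to 4 genes per pathway list with the smallest p, those completing a count of 5 or fewer, textbook partners, and the extremes of each marker list. The genes and lists were chosen with earlier results of these data known, and the hepatocyte scaling and the within-array pairs after the data were seen. Alternatives were other normalizations, moderation, array weights, filters, the methods' analysis of variance, a replicate block, a fold threshold and arrays left out. Overlaps among the lists were not removed except for urea cycle genes.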

Additional observations from a re-analysis of the deposited data

Results flagged for a closer look

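Among 204 groups of 6 arrays (102 named genes), 15 had an array far from the others of its group by Dixon's criterion for the gap to the nearest array over the range of the group, and chance alone gives about 1 in 20 groups. None was in a urea cycle gene. In ChREBP livers, ChREBP 6 stood high for Nit2 (10.85, next array 10.65), Slc25a12 (8.25, next 7.93), Haao (10.71, next 10.57) and Fabp4 (10.46, next 10.26). ChREBP 5 stood high for Nkd1 (8.17, next 7.16) and Lyve1 (9.19, next 8.50) and low for Aldh1b1 (8.70, next 8.95). In GFP livers, GFP 2 stood low for Slc38a2 (10.22, next 10.92) and Hnf4a (9.95, next 10.15). GFP 6 stood low for Slc25a2 (4.75, next 5.26) and high for Slc14a1 (5.63, next 5.11) and Epcam (5.90, next 5.43). GFP 1 stood high for Aqp8 (8.31, next 8.09) and Reln (7.98, next 7.71), and GFP 5 for Gpt2 (9.46, next 9.21).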

How the results depend on the processing

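All 8 urea cycle genes were lower, and 0 higher, at an adjusted p under 0.05 in limma under every setting run except the fold threshold and the hepatocyte scaling, including each array left out (8 to 8 lower, 0 to 0 higher). With the threshold at a 1.5-fold change and an unadjusted p under 0.05, 1 of the 8 was lower, with 320 of all genes lower and 817 higher. With hepatocyte markers set equal 7 were lower, with 748 of all genes lower and 8731 higher. Leaving out each array gave 2263 to 2984 genes lower and 2364 to 2648 higher, against 2730 lower and 2645 higher with all arrays. Median centring gave 3196 lower and 2364 higher, and repeated quantile normalization 3117 lower and 2489 higher. Replicate numbers did not pair the arrays (correlation of same-numbered arrays -0.06 to 0.25). With the replicate number as a block, all 8 genes were lower, as were 2059 of all genes, and 2380 were higher. The block ended the calls of Gpt2, Oat, Aqp9, Cebpa and Cyp2e1 and added that of Asns. The filter on dim genes left out Gad1, Arg2 and Klrb1c. Over the 102 named genes and up to 24 alternatives each, 92 calls were lost, 32 were gained and 9 differences turned in sign with a call on at least 1 side, in 44 genes. All of these 9 turned with hepatocyte markers set equal, to 0.0085 for Slc38a4, 0.0304 for Gad1, 0.0056 for Aqp9, 0.0237 for Cebpa, 0.18 for Bckdha, 0.12 for Alb, 0.053 for Cyp2e1, 0.12 for Aldh1a1 and 0.18 for Aqp3. That scaling is set by markers that include Alb, Cyp2e1 and Hnf4a, adds a constant to each array and raised the median of all genes to 0.15. It ended 12 further calls and added 11. Differences that passed neither with all arrays nor in the alternative turned in sign 14 times with this scaling (Glul, Got1 and Got2 among them) and 14 times, in 8 genes, in other settings, to values of at most 0.12 in size there. Low signal limits what can be said of Arg2, Slc25a2, Gad1, Slc14a1 and Klrb1c, among others.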
